A study of Homo sapiens with 4 samples.

Results

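The genes described here encode 10 proteins that act on, with or downstream of the 2 large ubiquitin ligases of the cell cycle. The 10 are CDC20, FZR1, FBXO5, UBE2C, UBE2S, SKP2, CKS1B, CKS2, PTTG1 and ESPL1. They were taken by symbol from the deposited table of 40205 symbols, and all 10 were found and had enough counts to be tested. The cells were A549, an established human lung adenocarcinoma line, kept in 6-well plates and collected 24 h after transfection of small interfering RNA (siRNA). In 2 RNA-seq libraries the siRNA targeted the long non-coding RNA SBF2-AS1 (Knockdown-670 and Knockdown-732; the labels do not say what these numbers stand for), and in 2 it was a negative control (NC-1 and NC-2). All 4 libraries thus came from lipid-transfected cells, and no untransfected group is used here. The labels do not tie the libraries of a group to different cultures, and the p-values therefore rest on a spread between libraries that may be technical only.

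The libraries held 12149767 to 12938143 counts. SBF2-AS1 had 15 and 18 counts in Knockdown-670 and Knockdown-732, against 57 and 79 in NC-1 and NC-2, or -1.94 ± 0.30 on the log2 scale (SE; adjusted p = 3.19e-05 in edgeR). All 5 epithelial markers (KRT8, KRT18, KRT19, EPCAM, CDH1) had counts, with a summed level of 2453 to 2566 CPM (counts per 1000000, by library size) in the knockdown and 3918 to 4034 CPM in NC. The 5 did not move together. KRT18, EPCAM and KRT8 fell (log2 fold changes -0.86, -0.56 and -0.40), KRT19 rose (1.06) and CDH1 did not pass (0.11). The 6 alveolar type II markers summed to 8.72 to 9.23 CPM in the knockdown and 3.31 to 4.25 CPM in NC, with SFTPB at 0. The difference lay in LAMP3, with 83 and 95 counts in the knockdown libraries and 17 and 23 in NC. NAPSA did not pass (log2 fold change -0.16), and SFTPC, SFTPA1 and SFTPA2 had at most 1 count a library. The 5 fibroblast markers summed to 10.2 to 13.2 CPM in the knockdown and 9.82 to 10.2 CPM in NC, and the 5 immune markers to 8.56 to 9.62 CPM in the knockdown and 10.2 to 12.3 CPM in NC, with CD3E at 0. Nearly all of the immune counts were on CD14, at 102 to 156 a library. The endothelial and erythroid lists stayed under 1 CPM in every library, with HBA2 and ALAS2 at 0. The part of these marker shifts in the results was not tested.

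The anaphase-promoting complex, or APC/C, is a ubiquitin ligase of many subunits that destroys mitotic proteins on schedule. CDC20 activates it at the metaphase to anaphase step, and FZR1 (also called CDH1, a name shared with the cadherin gene) keeps it active through late mitosis and G1. SCF-SKP2 is the other ligase: its F-box protein SKP2, with CKS1B as a helper, marks CDK inhibitors for destruction and so opens the way into S phase. The transcripts of many of these factors are themselves made periodically, with a peak in G2 and mitosis, through promoter elements called CHR (cell cycle genes homology region) and CCAAT box.

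In the knockdown 8 of the 10 genes fell and none rose: CDC20, FBXO5, UBE2C, UBE2S, CKS1B, CKS2, PTTG1 and ESPL1. FZR1 and SKP2 did not pass. The test was edgeR's quasi-likelihood test with Benjamini-Hochberg adjustment over all 16120 genes tested and a threshold of 0.05. Of those genes, 46.3% passed in either direction, 22.8% as lower and 23.5% as higher. The median log2 fold change of the 10 was -1.08, against -0.002 over all genes tested. The 8 that fell lay between -1.45 (CKS1B) and -0.52 (UBE2S), and 5 of them were under -1. Of all genes tested, 4.63% were called at a log2 fold change under -1. For 8 genes both knockdown libraries lay below both NC libraries, for FZR1 they lay above, and for SKP2 the groups overlapped. Over all genes tested the groups did not overlap in 72.6%, with both knockdown libraries below both NC libraries in 36.2% and above them in 36.4%. In bulk RNA, fewer cells in a phase of the cycle and less transcript per cell cannot be told apart.

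**Figure D1:**
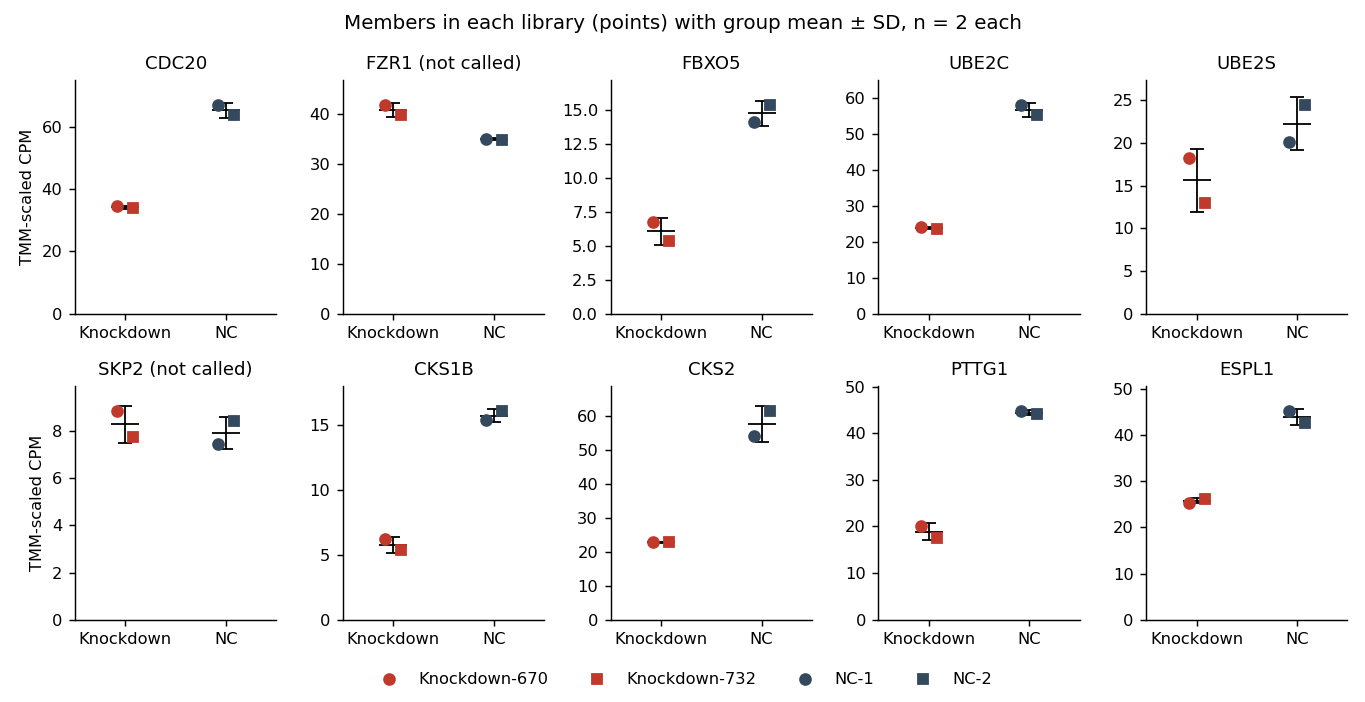
Level of each of the 10 genes in every library, in CPM scaled by TMM (vertical axis, from 0), with Knockdown left of NC; the bar and whiskers are the group mean and SD (n = 2 each). The groups are separate in all panels but SKP2, and FZR1 is the one gene whose knockdown libraries lie above both NC libraries.

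The promoters show one feature of sequence that several of these genes hold in common, and are printed for that reason. RefSeq promoter windows (GRCh38.p14, 250 bases before to 50 after a transcription start) were found for 9 of the 10 genes, UBE2C being the one without. They were searched on both strands for the CHR letters TTTGAA and the CCAAT box letters CCAAT, motifs that do not overlap each other in these stretches. A CHR was present in 6 genes and a CCAAT box in 7. In CDC20, CKS1B, FBXO5, CKS2 and ESPL1 both stood between 110 and 20 bases before a start, a stretch chosen after the letters were seen. Of all 35116 windows in the table, 15.2% held the CHR letters somewhere in their 300 bases, 4.40% held them in that stretch, and 0.797% held both motifs there. The CCAAT letters alone are more common, in 34.6% of the windows and in 17.8% of the stretches. The stretch is given 5′ to 3′ on the strand of the gene, with CHR and CCAAT letters, or their complements TTCAAA and ATTGG, in capitals.
CDC20, chr1:43358871-43358961, + strand: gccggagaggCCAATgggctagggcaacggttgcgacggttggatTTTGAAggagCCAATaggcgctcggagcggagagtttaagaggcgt
CKS1B, chr1:154974571-154974661, + strand: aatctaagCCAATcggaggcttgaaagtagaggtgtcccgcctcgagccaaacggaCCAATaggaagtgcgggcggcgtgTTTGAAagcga
FBXO5, chr6:152983061-152983151, - strand: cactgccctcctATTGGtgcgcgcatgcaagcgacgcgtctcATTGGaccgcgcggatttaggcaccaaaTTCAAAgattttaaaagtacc
CKS2, chr9:89311085-89311175, + strand: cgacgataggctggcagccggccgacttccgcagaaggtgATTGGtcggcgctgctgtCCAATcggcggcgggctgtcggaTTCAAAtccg
ESPL1, chr12:53268189-53268279, + strand: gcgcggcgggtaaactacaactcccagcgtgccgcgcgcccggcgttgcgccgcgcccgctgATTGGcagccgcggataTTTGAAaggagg
FZR1, chr19:3506201-3506291, + strand: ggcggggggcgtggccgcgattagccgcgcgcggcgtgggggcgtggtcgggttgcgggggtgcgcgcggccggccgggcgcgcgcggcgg

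The FZR1 stretch is shown beside the others as that of a gene that did not fall. It held neither motif, and the CHR letters of FZR1 stood 226 bases before the start. SKP2 had neither motif in its window, UBE2S had a CCAAT box 191 bases before its start, and PTTG1 had CCAAT boxes on both strands within 51 bases of a start and no CHR letters. Of the 10176 tested genes with a window, 25.4% fell in the knockdown. Of the 399 that held the CHR letters in the stretch 36.1% fell, and of the 86 that held both motifs 54.7% fell (47 genes), with 26.7% called at a log2 fold change under -1 against 4.61% of the 10176. These shares are a description with no test, the stretch was set on the genes described here, and 5 of the 86 are those genes.

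CDC20, the activator that the spindle checkpoint holds back until every chromosome is attached, had 34.6 and 33.9 CPM in Knockdown-670 and Knockdown-732, against 67.1 and 63.7 CPM in NC-1 and NC-2. The knockdown libraries differed from each other by less than 1 CPM, and the groups were far apart. The level was 47.7% lower in the knockdown (log2 fold change -0.93, SE 0.09, edgeR adjusted p = 9.12e-08). FZR1, the activator of G1, had 41.9 and 39.9 CPM in the knockdown libraries, against 35.1 and 34.8 CPM in NC. Both knockdown libraries were higher, but the log2 fold change of 0.22 (SE 0.10, 95% interval 0.02 to 0.43) did not pass (edgeR adjusted p = 0.0649). Among genes of at least 5 CPM in 2 libraries it did, at 0.23 (adjusted p = 0.0452; 0.0452 to 0.271 over 11 alternatives). On the strand opposite FZR1, GENCODE on GRCh38 places the end of MFSD12, which rose to 57.1 ± 4.56 CPM in the knockdown, against 31.5 ± 2.57 CPM in NC (SD, n = 2 each). No source used here says whether reads were counted by strand, and the part of MFSD12 reads in the FZR1 values was not tested.

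The balance of the activators was read as a ratio of counts within each library, which needs no scaling between libraries. There were 0.826 and 0.850 CDC20 counts per FZR1 count in Knockdown-670 and Knockdown-732, against 1.91 and 1.83 in NC-1 and NC-2. The ratio depends on transcript length, so only its change is read: its log2 value was 1.16 lower in the knockdown, a 2.23-fold drop, with SDs of 0.03 in the knockdown and 0.05 in NC (n = 2 each). CDC20 made up 45.2% (exact 95% binomial interval 41.9 to 48.5) and 45.9% (42.7 to 49.2) of the counts of the pair in the knockdown, and 65.7% (63.0 to 68.2) and 64.6% (62.0 to 67.2) in NC. These intervals cover counting error only. The exact two-sided permutation test gave p = 0.333, the smallest that 2 libraries against 2 can reach, as it did for 4 of the other 5 ratios computed. Adjusted over the 6 ratios (Benjamini-Hochberg) those 5 values were 0.400.

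FBXO5 (EMI1), the inhibitor that keeps the APC/C off through S and G2 phase, had 6.79 and 5.36 CPM in the knockdown libraries, against 14.1 and 15.4 CPM in NC. Both knockdown libraries were under both controls, and the level was 58.9% lower (log2 fold change -1.29, SE 0.17, edgeR adjusted p = 5.73e-06). An antisense transcript overlaps FBXO5 in GENCODE on GRCh38, and its part in these counts was not tested. Against FZR1, FBXO5 had 0.162 and 0.134 counts per count in the knockdown and 0.403 and 0.443 in NC, a 2.86-fold drop (exact permutation p = 0.333). Of 9 genes that act on the spindle checkpoint or hold the APC/C back, 7 fell and none rose (over all genes 22.8% and 23.5%). The 9 had a median log2 fold change of -1.36. They include TRIP13 (-0.93) and MAD2L1BP, which take the checkpoint complex apart. FBXO43 (EMI2), the relative of FBXO5 known from egg cells, averaged 1.22 ± 0.05 CPM in the knockdown and 5.15 ± 1.27 CPM in NC (SD, n = 2 each). The checkpoint kinase-like protein BUB1B averaged 15.7 ± 1.54 CPM in the knockdown and 55.5 ± 3.81 CPM in NC, a log2 fold change of -1.82. The checkpoint kinases TTK and BUB1 had log2 fold changes of -1.79 and -1.37. MAD1L1 and MAD2L1BP did not pass, at 0.27 and 0.22.

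**Figure D2:**
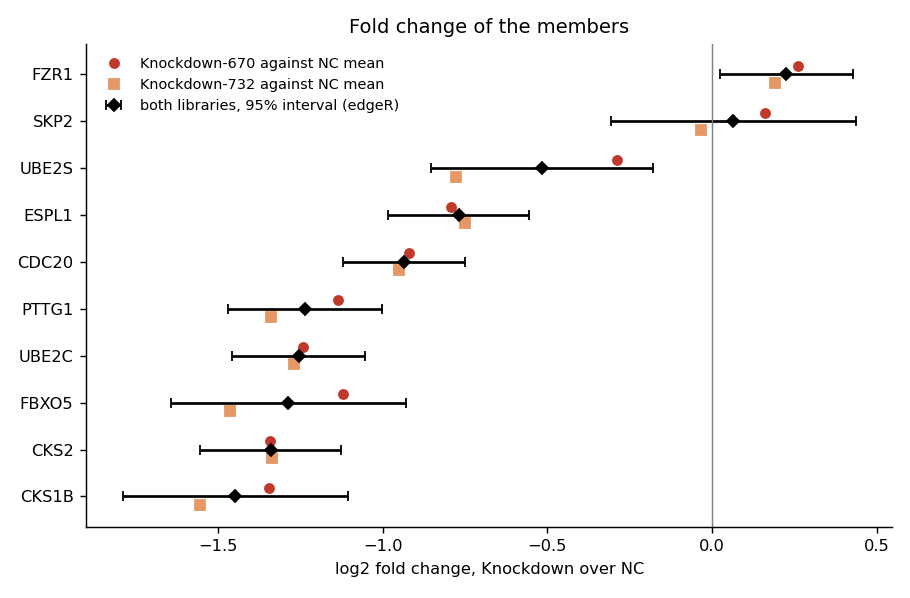
Log2 fold change of each gene, Knockdown over NC (horizontal axis): diamonds with 95% intervals are edgeR's values from all 4 libraries, and circles and squares are Knockdown-670 and Knockdown-732, each set against the mean of NC-1 and NC-2. UBE2S shows the widest gap between the knockdown libraries (-0.29 and -0.78), and the SKP2 interval spans 0.

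The conjugating (E2) enzymes UBE2C and UBE2S work in sequence on the APC/C: UBE2C places the first ubiquitins and UBE2S extends the chain. UBE2C had 23.9 and 23.5 CPM in the knockdown libraries, against 58.0 and 55.2 CPM in NC. That is 58.1% lower, with libraries of each group close together (log2 fold change -1.26, SE 0.10, edgeR adjusted p = 6.36e-09). UBE2S had 18.3 and 13.0 CPM in the knockdown libraries, against 20.1 and 24.5 CPM in NC. The groups did not overlap, but Knockdown-670 lay within 2 CPM of NC-1. On the log2 scale it stood at -0.52 (SE 0.16; adjusted p = 0.0139 in edgeR), and it no longer passed without NC-2 (log2 -0.37, adjusted p = 0.100) or without Knockdown-732 (-0.30, adjusted p = 0.129). Without Knockdown-670 it was -0.78. UBE2C had 1.31 and 1.81 counts per UBE2S count in the knockdown and 2.88 and 2.26 in NC, a 1.66-fold drop (exact permutation p = 0.333). The UBE2S symbol held only 12.7 to 17.0% of the counts on it and on symbols named as its copies (below). With copies added, the log2 fold changes were -1.18 for UBE2C and -0.79 for UBE2S. The size of the ratio and of its drop thus holds for these symbols alone. UBE2S overlaps the ribosomal protein gene RPL28 on the opposite strand in GENCODE on GRCh38. RPL28 averaged 1135 ± 153 CPM in the knockdown and 1133 ± 49.3 CPM in NC (SD, n = 2 each), and the part of its reads in UBE2S was not tested.

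Of 30 other E2 enzymes, 12 fell and 5 rose, against 22.8% and 23.5% of all genes tested. The 30 had a median log2 fold change of -0.18. UBE2T, the E2 of the Fanconi anaemia pathway, averaged 21.1 ± 0.91 CPM in the knockdown and 54.8 ± 6.66 CPM in NC, a log2 fold change of -1.38. UBE2E3 was at -0.98. The largest changes in the other direction were UBE2L6, the E2 of ISG15 conjugation, at 1.57 (129 ± 1.81 CPM in the knockdown, 43.6 ± 0.21 CPM in NC), and UBE2O at 0.89. UBE2H (0.45) and CDC34 (0.44), an E2 that works with SCF ligases, also rose.

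For UBE2S and CKS1B the table lists more counts on symbols named as copies than on the gene itself. Symbols named as copies (the gene name with P and a number, and for PTTG1 also PTTG2, PTTG3P and PTTG4P) were present for 5 of the 10 genes. UBE2S itself had 215 and 165 counts in the knockdown libraries and 260 and 324 in NC, while UBE2SP1 had 858 and 820 in the knockdown and 1460 and 1853 in NC. The parent symbol thus held 12.7 to 17.0% of the counts on it and its copies. For CKS1B the share was 27.4 to 34.6%, with CKS1BP3 at 102 and 100 counts in the knockdown and 320 and 336 in NC. CDC20 held 85.3 to 88.0%, UBE2C 91.4 to 97.5% and PTTG1 91.0 to 94.1% of theirs. Which of these reads came from which transcript cannot be told from the table.

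The copies that were tested fell with their parents in most cases: both for UBE2S, 4 of 4 for CKS1B, CDC20P1 for CDC20, and 1 of 2 for PTTG1. UBE2CP5, the tested copy of UBE2C, did not pass. With the counts of the copies added to the parent and the whole table refitted, a choice made after the data were seen, all 5 genes still fell. The log2 fold change of UBE2S then was -0.79 (SE 0.09, edgeR adjusted p = 5.78e-06), against -0.52 on its own. That of CKS1B was -1.66 (SE 0.10), against -1.45 on its own. Those of CDC20, UBE2C and PTTG1 were -0.93, -1.18 and -1.25.

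**Figure D3:**
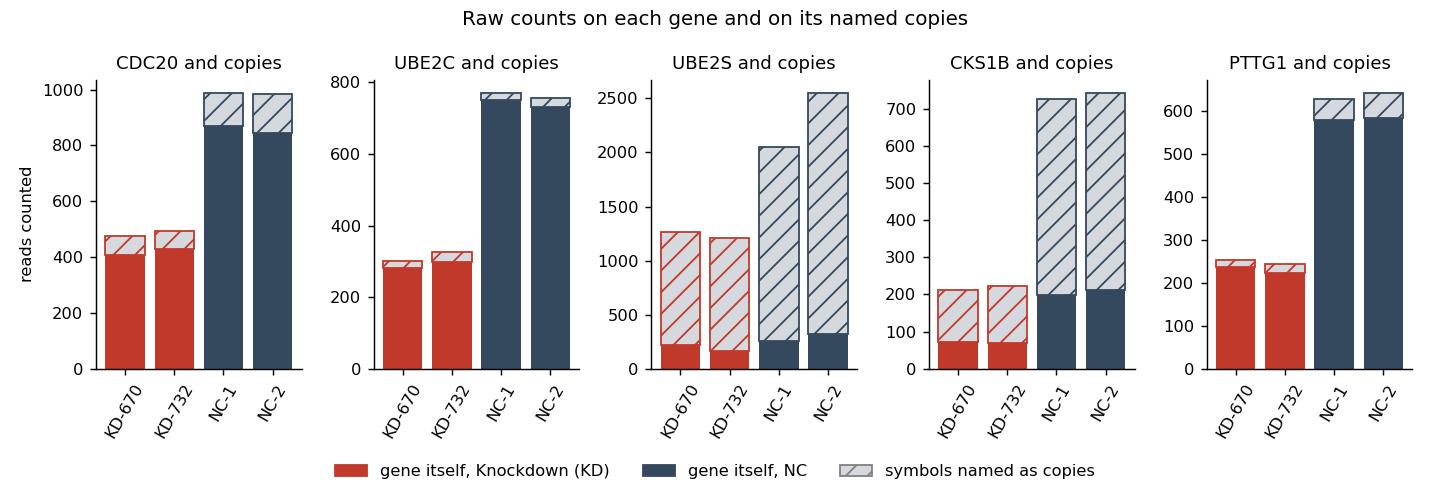
Raw counts (vertical axes, from 0) on each gene, in solid colour, and on all symbols named as its copies, hatched, in the 4 libraries, Knockdown (KD) left of NC. For UBE2S and CKS1B the hatched part is the larger in every library, and the whole column is lower in both knockdown libraries for all 5 genes.

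The core of the APC/C, which carries out the reaction that CDC20 switches on, had fold changes nearer to 0 than that of CDC20. Of 14 core subunits 6 fell and none rose, against 22.8% and 23.5% of all genes tested. The 14 had a median log2 fold change of -0.25 and a range from -0.66 to 0.18. In DESeq2, which passed fewer genes over all (5311 against 7463 in edgeR), 3 fell. ANAPC10, which helps to hold substrates, averaged 5.31 ± 0.30 CPM in the knockdown and 8.40 ± 0.41 CPM in NC (SD, n = 2 each; log2 fold change -0.66, edgeR adjusted p = 0.00747). ANAPC4 was at -0.56, ANAPC7 at -0.47 and CDC27, the subunit that docks both activators, at -0.44 (70.4 ± 1.54 CPM in the knockdown, 95.2 ± 0.83 CPM in NC). The catalytic pair ANAPC2 and ANAPC11 had values of 0.18 and -0.21 and did not pass.

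PTTG1 (securin) and ESPL1 (separase) are inhibitor and protease: the APC/C with CDC20 destroys PTTG1, and freed ESPL1 then cuts cohesin to part the sister chromatids. PTTG1 had 20.2 and 17.6 CPM in the knockdown libraries, against 44.8 and 44.1 CPM in NC. No knockdown library came near a control, and the level was 57.5% lower (log2 fold change -1.23, SE 0.11, edgeR adjusted p = 5.11e-08). ESPL1 had 25.4 and 26.2 CPM in the knockdown libraries, against 45.2 and 42.7 CPM in NC. It was 41.4% lower, the smallest fall after UBE2S (log2 fold change -0.77, SE 0.10, edgeR adjusted p = 6.05e-06). PTTG1 had 0.796 and 0.672 counts per ESPL1 count in the knockdown and 0.990 and 1.03 in NC, a 1.38-fold drop (exact permutation p = 0.333). The exact binomial intervals of the PTTG1 share were 40.1 to 48.6% and 36.1 to 44.4% in the knockdown and 46.8 to 52.7% and 47.9 to 53.7% in NC, so that Knockdown-670 overlapped both controls in counting error.

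Among 12 genes of cohesin, of its handling and related to PTTG1, 9 fell and none rose, against 22.8% and 23.5% of all genes tested. The 12 had a median log2 fold change of -0.77. SGOL1, which shields centromeric cohesin, was at -1.81, CDCA5 (sororin) at -1.20 and the ring subunit SMC1A at -1.02 (128 ± 3.81 CPM in the knockdown, 260 ± 12.1 CPM in NC). STAG1 was at -0.84. RAD21, the subunit that ESPL1 cuts, averaged 105 ± 3.46 CPM in the knockdown and 185 ± 4.54 CPM in NC. PTTG1IP, which binds PTTG1, was at 0.03, and PTTG2, counted above as a copy of PTTG1, was at -1.37. Neither is a cohesin gene, and neither passed.

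Apart from CDC20, PTTG1 and SKP2, the list of APC/C substrates fell in 23 of 23 cases, against 22.8% of all genes tested. It shares BUB1 and CDCA5 with the lists above. The 23 had a median log2 fold change of -1.57 and values from -2.46 to -0.999. HMMR was at -2.46, the cyclin CCNB2 at -2.00 (17.4 ± 0.92 CPM in the knockdown, 69.7 ± 6.52 CPM in NC), the reductase subunit RRM2 at -1.79 and the spindle factor TPX2 at -1.77. CDC20, PTTG1 and SKP2, which are APC/C substrates too, lay at the upper end of or above that range. The lists overlap other cell cycle groups of these data that were known to fall when they were drawn up, so their counts are not independent of that knowledge.

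**Figure D4:**
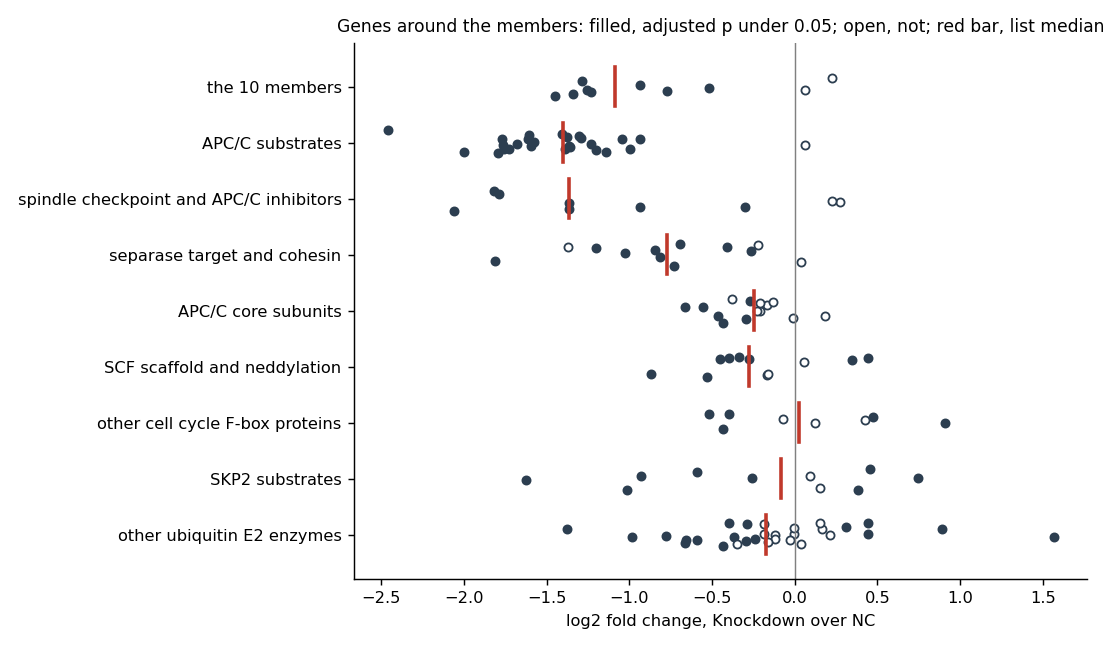
Log2 fold change, Knockdown over NC (horizontal axis), of the 10 genes and of 8 lists of related genes, 1 point a gene; filled points passed an adjusted p of 0.05, open points did not, and red bars are medians. APC/C substrates and checkpoint genes have medians of -1.40 and -1.36, while APC/C core subunits and the SCF genes lie near -0.25 and -0.28.

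SKP2, the F-box protein that gives SCF-SKP2 its targets, had 8.83 and 7.72 CPM in the knockdown libraries, against 7.42 and 8.39 CPM in NC. The libraries of the groups were interleaved. On the log2 scale it stood at 0.06 (SE 0.18; adjusted p = 0.796 in edgeR), with a 95% interval of 0.808-fold to 1.35-fold, so that changes between -0.31 and 0.44 on the log2 scale lie inside the interval. The sign of this value turned without NC-1 (-0.03) and without Knockdown-670 (-0.04). SKP2 had 96 to 111 counts a library, the lowest of the 10 genes in NC.

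CKS1B and CKS2 are small, closely related proteins that bind CDKs, and CKS1B also lets SKP2 grip CDKN1B. CKS1B had 6.20 and 5.36 CPM in the knockdown libraries, against 15.4 and 16.1 CPM in NC, 63.3% lower (log2 fold change -1.45, SE 0.16, edgeR adjusted p = 8.20e-07). CKS2 had 22.8 and 22.9 CPM in the knockdown libraries, against 54.0 and 61.4 CPM in NC, 60.5% lower (log2 fold change -1.34, SE 0.10, edgeR adjusted p = 5.42e-09). Both genes separated the groups completely. Their ratio was 0.272 and 0.234 CKS1B counts per CKS2 count in the knockdown and 0.285 and 0.262 in NC, which overlap (exact permutation p = 0.667, also after adjustment). This overlap holds for the CKS1B symbol alone, which had 27.4 to 34.6% of the counts on it and its copies. With copies added, the log2 fold changes were -1.66 for CKS1B and -1.34 for CKS2. The ratio was not recomputed with copies.

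Neddylation switches cullins on. Of 11 genes of the SCF scaffold and of neddylation, 6 fell and 2 rose, against 22.8% and 23.5% of all genes tested. The 11 had a median log2 fold change of -0.28. The E2 enzymes among them, CDC34 and UBE2R2 included, are also counted with the other E2 enzymes above. NAE1, a subunit of the enzyme that activates NEDD8, averaged 28.6 ± 0.59 CPM in the knockdown and 52.4 ± 3.92 CPM in NC (log2 fold change -0.87). CAND1, which exchanges the F-box proteins of cullins, was at -0.53, UBA3, the partner of NAE1, at -0.45 and the E2 enzyme UBE2R2 at -0.40. NEDD8 (0.35) and CDC34 (0.44) rose. Of 8 other F-box proteins of the cell cycle 3 fell and 2 rose, against 22.8% and 23.5% of all genes tested. The 8 had a median log2 fold change of 0.03. FBXO7 was at -0.52, CCNF (cyclin F) at -0.43 and FBXW11 at -0.40, while FBXL2 rose by 0.91 and FBXO31 by 0.47.

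SKP2 substrates went in both directions, with 5 of 10 lower and 3 higher, as did all genes tested (22.8% lower, 23.5% higher). CDKN1B, the CDK inhibitor best known as an SKP2 target, averaged 71.3 ± 2.90 CPM in the knockdown and 64.1 ± 6.70 CPM in NC and did not pass (log2 fold change 0.15, edgeR adjusted p = 0.162). SKP2 had 0.120 and 0.111 counts per CDKN1B count in the knockdown and 0.125 and 0.122 in NC. That is a change of -0.09 on the log2 scale (exact permutation p = 0.333). CDKN1A, another CDK inhibitor, rose by 0.75, FOXO1 by 0.45 and MYC by 0.38. The S phase factors E2F1, ORC1 and CDT1 had log2 fold changes of -1.63, -1.02 and -0.93, and the pocket protein RBL2 -0.59. These are transcript levels, and the ligase acts on the proteins, which were not measured.

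**Figure D5:**
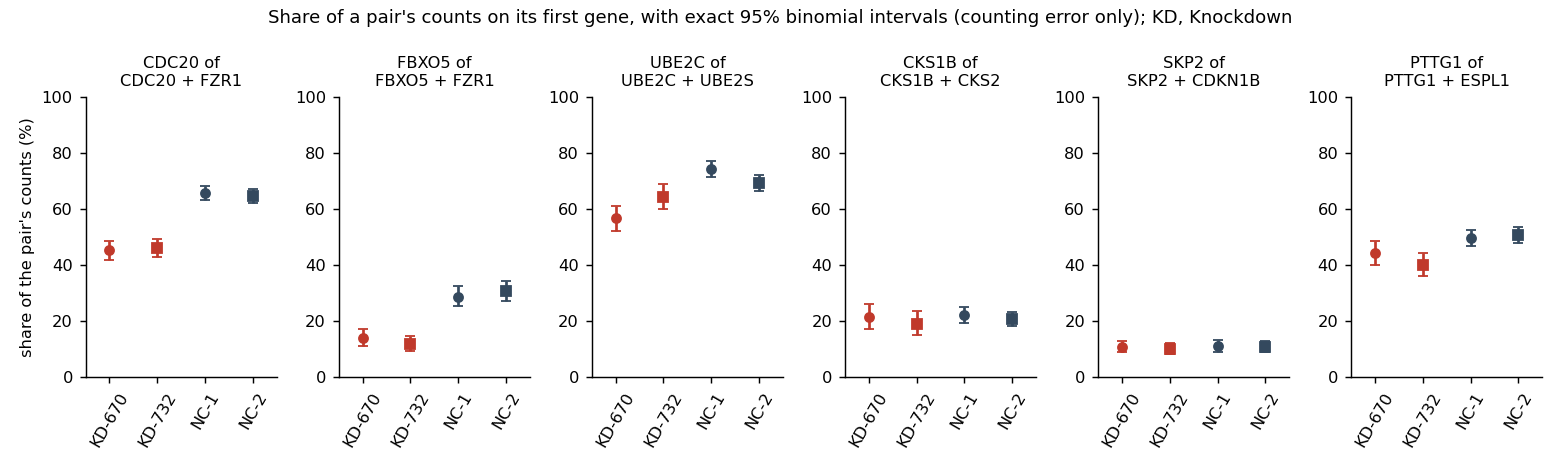
Share of the counts of a gene pair that fell on its first gene (vertical axis, percent, 0 to 100) in each library, Knockdown (KD) left of NC, with exact 95% binomial intervals. Counts on symbols named as copies are left out, which matters most for UBE2S and CKS1B. CDC20 of CDC20 and FZR1 is at 45.2 and 45.9% in the knockdown and at 65.7 and 64.6% in NC, while the shares of CKS1B overlap between the groups and those of SKP2 (10.7 and 10.0% in the knockdown, 11.1 and 10.9% in NC) have overlapping intervals.

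The genes most like 3 of the members in pattern were looked up over the 4 libraries, as the smallest root mean square difference in centred log2 CPM among 10070 genes of at least 5 CPM. Symbols of pseudogenes, of ribosomal and mitochondrial genes, and those starting with LOC were left out. So were all symbols ending in P and a number, which also removed coding genes such as TRIP13. Nearest to CDC20 were ME2 (difference 0.0090), TMED5 (0.010) and FGB (0.015), with log2 fold changes of -0.93, -0.95 and -0.96. Nearest to FZR1 were NEO1 (0.0088), ENTPD5 (0.0095) and SUPT7L (0.011), and nearest to SKP2 were ITPRIPL2 (0.0093), PUS10 (0.013) and UBL7 (0.015). With 4 libraries in 2 groups such a likeness mostly repeats the size of the fold change.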

How the data were processed

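Per the labels, RNA was extracted with Trizol and sequenced on the Ion Proton. The authors deposited raw counts per gene symbol, 1 column a library. The submitters' processing notes name the build GRCh37; no source used here gives the aligner, counting program, annotation or use of strand. No column was left over (0), and no row lacked a gene name.

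The test was edgeR 4.0.16 (R 4.3.3) with filterByExpr, TMM factors and robust glmQLFit and glmQLFTest, adjusted by Benjamini-Hochberg. CPM is scaled by TMM unless said otherwise, and SE is the log2 fold change over the root of F. Replicate libraries differed by more than counting noise (chi-square per gene 3.42 for the knockdown, 3.72 for NC), so each was counted once. The genes and lists were chosen with earlier results of these data known. From each list the text names up to 4 called genes of largest change, up to 4 against its majority, and CDKN1B. RAD21, ANAPC2, ANAPC11, MAD1L1, MAD2L1BP, PTTG1IP, PTTG2, TRIP13, RBL2, UBE2R2, FBXW11, RPL28 and MFSD12 were added after their values were seen. Overlaps are from GENCODE 29 on GRCh38, promoters from RefSeq GRCh38.p14. Scripts were tested on simulated data.

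Alternatives were DESeq2 1.42.0, limma-voom (limma 3.58.1), DESeq2 size factors, library size only, no filter, 5 CPM in 2 libraries, each library left out, 1 count added in the ratios, and copies added to their parents.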

Additional observations from a re-analysis of the deposited data

How the results depend on the processing

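The 8 falls were 8 under every scaling, filter and test tried and with copies added, and 7 or 8 with 1 library left out. Of 250 recomputed values, 244 kept direction and side of the threshold, moved under 1.5 times (counts) or by less than 1 SD (ratios). That SD was pooled over the groups, and leaving out 1 of 2 libraries cannot move a ratio beyond it. The ratios with 1 library left out were thus bound to count as kept and say nothing on stability. With a filter of 5 CPM in 2 libraries FZR1 passed as higher (log2 0.23, edgeR adjusted p = 0.0452). In DESeq2 3 core subunits of the APC/C fell in place of 6, and over all genes 5311 passed in place of 7463. The cause of these changes was not tested. With 1 library left out, where the lone library of a group is assumed to vary like the other group, UBE2S ran from -0.78 to -0.30, losing its call without NC-2 (-0.37) and without Knockdown-732 (-0.30), and SKP2 ran from -0.037 to 0.15 (-0.026 without NC-1, -0.037 without Knockdown-670). Library size alone moved the median of all genes to -0.07. The calls of the remaining members did not change. Several list counts also moved, within the 1.5 times allowed: by library size only, 8 core subunits of the APC/C fell. With 1 library left out list counts varied too, and the calls of the checkpoint list were not all lower in every such fit. SKP2, CKS1B and FBXO5, with at most 213 counts a library, have the widest intervals. No paired analysis was possible because the groups share no replicate numbers in the labels.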
